A study of Mus musculus with 4 samples.

Results

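Calca, Calcb and Cck are genes for secreted peptides that are best known from nerve and endocrine cells. They are described here in organoids of the mouse mammary gland. They were chosen by their measured levels, high in 1 kind of cell and unequal between culture conditions in earlier results of these data, and they are 3 of the 32285 genes counted. Their levels, their cells and their ratios between conditions are therefore given as descriptions, with no test. Calca (ENSMUSG00000030669) lies at chr7:114625981-114636910 and its paralog Calcb (ENSMUSG00000030666) at chr7:114716555-114723368, which leaves 79.6 kb between them with 2 gene models, Gm18599 and Gm15500. Cck (ENSMUSG00000032532) lies at chr9:121489824-121495694, where the gene model Gm38661 overlaps it. The coordinates are those of RefSeq on GRCm38.p6, the mm10 build.

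The organoids came from the fat pads, freed of lymph nodes, of virgin mice aged 8 to 9 weeks. They were dissociated after culture in a collagen matrix (COL1), a stiff matrix (STIFF), Matrigel (MATR) or a soft matrix (SOFT). Cells of COL1 and STIFF were marked with hashtag antibodies and loaded together on 1 channel for single-cell RNA sequencing of transcript 3′ ends, and cells of MATR and SOFT shared the other channel. Each condition was 1 culture, so there is no replicate and differences could not be tested, and every interval below covers counting error only. COL1 over MATR and STIFF over SOFT each cross the channels, and there channel and condition cannot be told apart. The sources used here do not give the strain, the number of animals or the time in culture. Which tag marked which condition was taken from how the deposited matrices are named.

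Calca is read in alternative splice forms, of which thyroid C cells make mostly calcitonin and sensory neurons mostly the calcitonin gene-related peptide (CGRP). Calcb encodes a second, very similar CGRP. CGRP acts through the receptor protein Calcrl joined to the accessory protein Ramp1, while adrenomedullin, the product of Adm, uses Calcrl with Ramp2 or Ramp3, and calcitonin uses Calcr. Cck encodes cholecystokinin, a hormone of gut endocrine cells and a transmitter of brain neurons, whose receptors are Cckar and Cckbr. All these peptides are cut from longer precursors and need further enzymes, such as the amidating enzyme Pam, to become active. Counts of 3′ ends per gene do not separate the calcitonin form from the CGRP form.

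The region around the transcription start is shown for Calca and Cck, with the letters TGACG, the half-site of the cyclic AMP response element, marked. The same window of Calcb was not analysed here. Each window runs 250 bases before to 50 bases after the start site, on the minus strand, from RefSeq on GRCm38.p6, and capitals mark TGACG or its reverse complement CGTCA. The Calca window is chr7:114636308-114636607 and lies inside the annotated span of the gene. The Cck window is chr9:121495645-121495944.
Calca: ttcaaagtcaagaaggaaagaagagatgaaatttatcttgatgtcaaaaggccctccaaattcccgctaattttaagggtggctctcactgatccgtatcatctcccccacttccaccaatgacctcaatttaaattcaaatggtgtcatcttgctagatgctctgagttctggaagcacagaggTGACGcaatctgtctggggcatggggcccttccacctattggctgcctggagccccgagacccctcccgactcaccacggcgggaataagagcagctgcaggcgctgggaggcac
Cck: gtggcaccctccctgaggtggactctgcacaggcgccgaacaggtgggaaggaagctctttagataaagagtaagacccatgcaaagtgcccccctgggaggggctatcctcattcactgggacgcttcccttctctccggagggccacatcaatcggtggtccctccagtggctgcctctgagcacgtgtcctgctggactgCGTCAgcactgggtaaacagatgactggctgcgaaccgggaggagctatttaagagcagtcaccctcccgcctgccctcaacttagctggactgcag
The match begins 65 bases before the start site in Calca and 47 bases before it in Cck. TGACG on either strand is found in 20.8% of the 32851 windows of the table. The Cck window also holds CACGTG once and TATTTAA once, which occur on either strand in 7.15% and 4.51% of windows. The Calca window holds CCAAT 2 times, which occurs in 37.4%. Neither window holds TATAAA or GGGCGG. GC content is 51.3% in the Calca window and 59.3% in the Cck window. A match describes these letters and shows no binding.

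After filtering, 9568 barcodes remained where COL1 and STIFF were pooled and 7945 where MATR and SOFT were, with medians of 10087.5 and 12626 unique molecule counts (UMIs). The 2 channels share 19 kept barcode sequences. By hashtag, COL1 had 1563 cells, STIFF 2451, MATR 2333 and SOFT 1941, while 54.9% of barcodes of the COL1 and STIFF pool and 42.7% of the MATR and SOFT pool received no tag. Cells were clustered without the 3 genes. The clusters named from marker genes were basal-like (681 cells), hormone receptor-positive luminal (HR-positive, 3915 cells in clusters 2, 3 and 6), hormone receptor-negative luminal (HR-negative, 1182), fibroblast-like (501), immune-like (798) and endothelial-like (24). Clusters 1, 4 and 9 stayed unnamed, and cluster 1 (965 cells) carried markers of both luminal classes, a median of 26550 UMIs and the highest median doublet score.

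Defining markers of endocrine and nerve cells were looked at in the classes that held most of the 3 genes. In HR-positive cells the neuroendocrine markers Chga, Insm1 and Neurod1 were at 0 UMIs. In fibroblast-like cells Chga, Chgb, Insm1 and Neurod1 were at 0 UMIs. All 21 Chga UMIs of tagged cells were in 4 of the 24 endothelial-like cells, and the unnamed clusters had none. Neuron markers summed to 9.06 counts per 1000000 UMIs (CPM) in HR-positive and 19.99 CPM in fibroblast-like cells, with none of the 6 at 20 CPM or more in either class. The HR-positive clusters held 8 of 9 hormone receptor-positive markers at 20 CPM or more, with Tnfsf11 at 0, beside 6 of 10 HR-negative markers (summed level 1552 CPM, against 39537 CPM in HR-negative cells), and the fibroblast-like cluster held all 8 fibroblast markers at that level beside 7 of 8 pericyte, 8 of 10 HR-negative and 5 of 10 basal markers.

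Calca and Calcb lay mainly in 1 class of cells and Cck in another. Of 11717 Calca UMIs in tagged cells, 66.4% were in HR-positive cells, which held 35.5% of all UMIs. Of 3616 Calcb UMIs, 74.1% were in HR-positive cells. Of 12578 Cck UMIs, 87.7% were in fibroblast-like cells, which held 6.69% of all UMIs. A further 22.6% of Calca, 15.2% of Calcb and 3.83% of Cck lay in the unnamed cluster 1. The share of Calca in HR-positive cells was 62.4% when all kept barcodes were used and tags ignored.

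**Figure D1:**
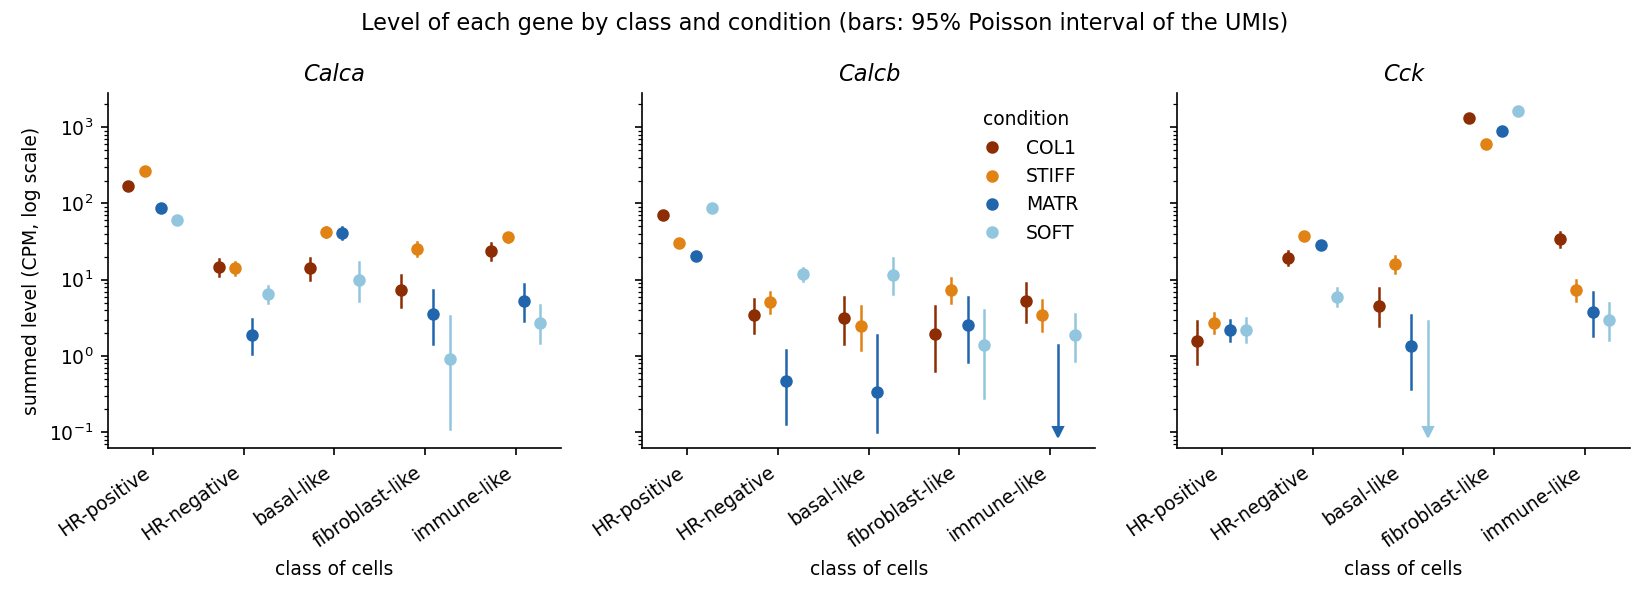
Summed level of Calca, Calcb and Cck in CPM (log scale) in 5 classes of cells, with 1 point per condition, 95% Poisson intervals as bars and triangles for a count of 0. Calca and Calcb are highest in HR-positive cells and Cck in fibroblast-like cells in each of the 4 conditions, with Cck between 596 and 1646 CPM there.

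Calca, the calcitonin and CGRP gene, was highest in HR-positive cells in each condition. Its summed level there was 171 CPM in COL1 (95% Poisson interval 161 to 181, 1184 UMIs in 536 cells), 266 CPM in STIFF (258 to 275, 4087 UMIs in 1080 cells), 86.9 CPM in MATR (82.7 to 91.3, 1579 UMIs in 1257 cells) and 60.8 CPM in SOFT (57.0 to 64.8, 930 UMIs in 1042 cells). STIFF was thus highest and SOFT lowest. No 2 intervals overlapped, but they cover counting error only and treat UMIs of the same cell as independent. The 10 cells with the most Calca held between 25.0% (STIFF) and 41.1% (COL1) of a condition's UMIs in this class. How many other genes had intervals that stayed apart was not worked out, so nothing is read from the lack of overlap. The other classes ranged over the 4 conditions from 10.0 to 42.7 CPM (basal-like), 1.88 to 14.6 CPM (HR-negative), 0.919 to 25.3 CPM (fibroblast-like) and 2.74 to 35.8 CPM (immune-like). Single cells carried part of these lower levels. In COL1, 54 of the 67 Calca UMIs of HR-negative cells were in 1 cell, and in MATR 1 basal-like cell held 62 of 120.

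Calca was present in some HR-positive cells and not seen in others. After thinning each cell to 5000 UMIs, 20.2% of 3815 HR-positive cells had a Calca UMI, against 1.31% of HR-negative cells. Unthinned, the shares were 31.6% of HR-positive and 5.41% of HR-negative cells, at median depths of 12477 and 22427 UMIs. By condition, the thinned share in HR-positive cells was 23.0% in COL1 (exact 95% interval 19.4 to 26.9), 30.8% in STIFF (interval 28.0 to 33.7), 16.0% in MATR (interval 14.0 to 18.2) and 12.9% in SOFT (interval 10.9 to 15.1). The order was that of the summed levels, and the intervals of MATR and SOFT overlapped. Detected cells had a median of 2 UMIs and a maximum of 154, and the 391 HR-positive cells with the most Calca, of 3915, held 82.4% of the class's Calca UMIs.

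Within the HR-positive class Calca marked cluster 2, the cells led by Klk1b27, Defb14, Gpx3 and Krt4. Cluster 2 held 57.0% of all Calca UMIs and 19.3% of all UMIs. Its Calca level was 328 CPM in COL1, 343 CPM in STIFF, 123 CPM in MATR and 85.2 CPM in SOFT. COL1 and STIFF, which shared a channel, were close together (COL1 over STIFF 0.957, 0.892 to 1.03), and both lay above MATR and SOFT, which shared the other. Cluster 3, led by Tnip3, Reg3b, Sprr1a and Ffar4, had 59.2 CPM in COL1, 56.1 CPM in STIFF, 17.3 CPM in MATR and 69.7 CPM in SOFT. There SOFT was highest and MATR lowest. In STIFF 1 cell held 110 of the 213 Calca UMIs of cluster 3. With the cell highest in Calca left out of each condition, cluster 3 had 46.2 CPM in COL1, 27.3 CPM in STIFF, 13.7 CPM in MATR and 61.7 CPM in SOFT. Cluster 6, led by Fam13a, Fxyd4 and Ly6d, had 26.1 CPM in COL1, 76.7 CPM in STIFF (29 cells only), 17.6 CPM in MATR and 24.4 CPM in SOFT.

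The mix of these clusters differed between conditions. Cluster 2 held 233 of 536 HR-positive cells of COL1, 818 of 1080 of STIFF, 839 of 1257 of MATR and 292 of 1042 of SOFT. Calca over all HR-positive cells was 1.96 times as high in COL1 as in MATR (1.82 to 2.12), and within cluster 2 it was 2.66 times as high (2.45 to 2.88). STIFF over SOFT was 4.38 (4.08 to 4.71) over the class and 4.02 (3.60 to 4.50) within cluster 2, but 0.805 (0.682 to 0.948) within cluster 3, and 0.442 (0.353 to 0.55) there without the highest cells. MATR over SOFT was 1.43 (1.32 to 1.55) over the class, 1.45 (1.29 to 1.63) in cluster 2 (1.58 without the highest cells) and 0.248 (0.173 to 0.345) in cluster 3. The ratio between the stiff and the soft matrix, and that between Matrigel and the soft matrix, thus ran in opposite directions in clusters 2 and 3. At Leiden resolution 1.0, 3 HR-positive clusters had Krt4, Defb14 or Gpx3 among their leading genes. Their Calca levels were 121, 240 and 379 CPM. In that order, STIFF gave 147 of 1008, 375 of 916 and 303 of 387 cells, and MATR gave 610, 266 and 55. Ratios within these finer clusters were not worked out, so cluster 2 is not taken as uniform.

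COL1 over STIFF for Calca was 0.640 (0.600 to 0.683) over the HR-positive class and 0.957 in cluster 2. In cluster 3 it was 1.06 (0.840 to 1.32) with all cells and 1.69 (1.27 to 2.26) without the highest cell of each condition. In cluster 6 Calca stood at 26.1 CPM in COL1 and 76.7 CPM in STIFF, where 1 cell held 12 of 24 UMIs and the level without it was 39.8 CPM. When tags were called by their relative height instead of by thresholds, which assigned 1939 cells to COL1 and 4834 to STIFF, the class ratio was 0.709 (0.664 to 0.757). That is no longer 1.5-fold below 1.

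**Figure D2:**
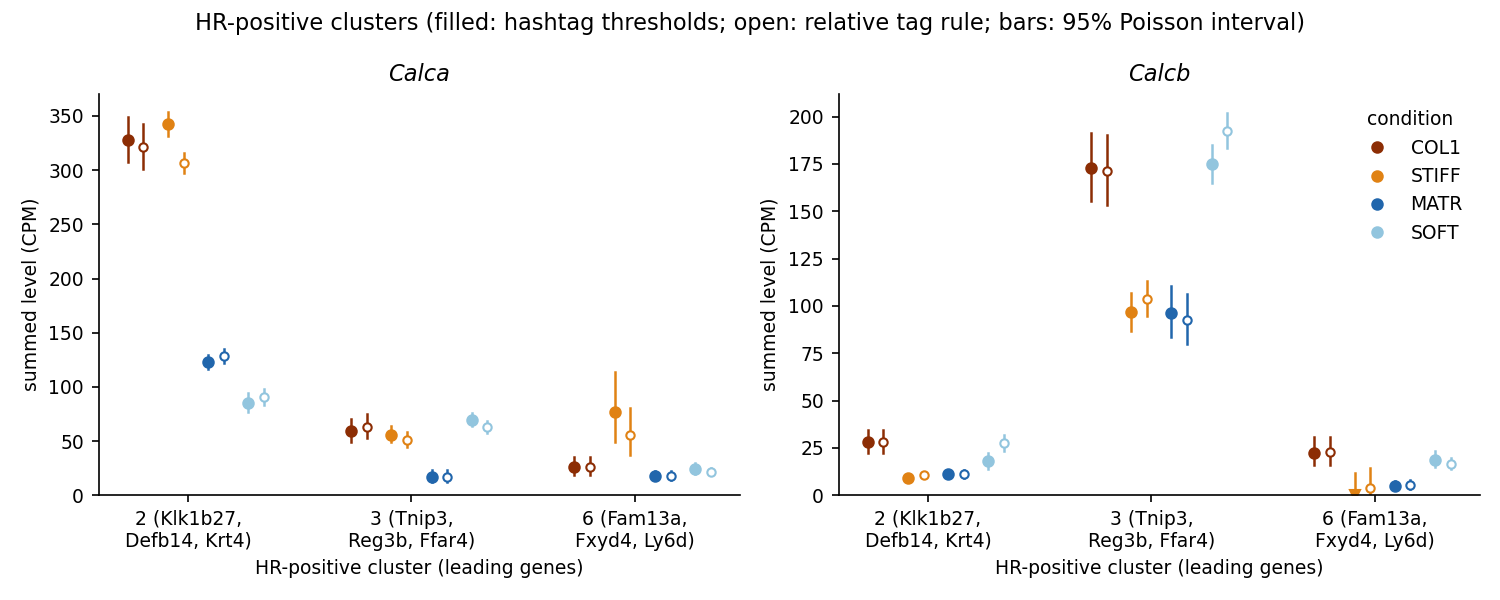
Summed level of Calca (left) and Calcb (right) in CPM in the 3 HR-positive clusters by condition, with filled points for hashtag thresholds, open points for the relative tag rule and bars for 95% Poisson intervals. Calca is highest in cluster 2, at 328 CPM in COL1 and 343 in STIFF, and Calcb in cluster 3, at 173 CPM in COL1 and 175 in SOFT.

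Calcb, the gene of the second CGRP, was also highest in HR-positive cells, with another order of conditions. Its level was 71.1 CPM in COL1 (65.0 to 77.7, 494 UMIs), 30.5 CPM in STIFF (27.8 to 33.4, 468 UMIs), 20.3 CPM in MATR (18.2 to 22.4, 368 UMIs) and 88.2 CPM in SOFT (83.5 to 93.0, 1349 UMIs). SOFT was highest and MATR lowest. The basal-like, HR-negative, fibroblast-like and immune-like classes had at most 11.8 CPM in any condition, and in immune-like cells of MATR no Calcb UMI was counted, which allows up to 1.14 CPM.

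After thinning, a Calcb UMI was found in 15.3% of HR-positive cells in COL1 (12.2 to 18.7), 6.89% in STIFF (interval 5.44 to 8.59), 5.58% in MATR (interval 4.36 to 7.02) and 17.9% in SOFT (interval 15.6 to 20.4). COL1 and SOFT overlapped, and so did STIFF and MATR. Over the 4 conditions the thinned share was 10.6% in HR-positive and 0.958% in HR-negative cells, against 17.5% and 2.45% unthinned. The highest count in an HR-positive cell was 41 UMIs.

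Calcb lay mainly in cluster 3, which held 59.2% of its UMIs and 9.52% of all UMIs. Its level in cluster 3 was 173 CPM in COL1, 96.6 CPM in STIFF, 96.4 CPM in MATR and 175 CPM in SOFT. These fell into 2 pairs, COL1 with SOFT and STIFF with MATR, and each pair joined both channels. Cluster 2 had 28.2 CPM in COL1, 8.99 CPM in STIFF, 11.5 CPM in MATR and 17.9 CPM in SOFT. Cluster 6 had 22.6 CPM in COL1, 4.71 in MATR and 18.7 in SOFT, with 0 UMIs in the 29 STIFF cells.

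Cluster 3 held 157 of 536 HR-positive cells of COL1, 233 of 1080 of STIFF, 130 of 1257 of MATR and 428 of 1042 of SOFT. Calcb over the HR-positive class was 3.51 times as high in COL1 as in MATR (3.06 to 4.03), and within cluster 3 it was 1.79 times as high (1.51 to 2.13). STIFF stood at 0.346 of SOFT (0.311 to 0.384) over the class and 0.553 (0.491 to 0.622) within cluster 3. COL1 over STIFF was 2.33 (2.05 to 2.65) over the class and 1.79 (1.54 to 2.07) in cluster 3. MATR over SOFT was 0.230 (0.204 to 0.258) over the class and 0.552 (0.474 to 0.639) in cluster 3. Each ratio kept its direction within the cluster and was closer to 1 there.

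Set beside all genes of at least 5 CPM in HR-positive cells, Calca and Calcb were both at least 1.5-fold higher in COL1 than in MATR, as were 5.77% of genes, while 1.62% were lower. In STIFF over SOFT, Calca was at least 1.5-fold higher, as were 5.2% of genes, and Calcb at least 1.5-fold lower, as were 4.31%. In COL1 over STIFF, Calcb was among the 3.95% that were higher and Calca among the 2.99% that were lower. In MATR over SOFT, Calcb was among the 3.84% that were lower, and Calca at 1.43 did not reach 1.5-fold, as 2.29% of genes did, but was at 1.65 under the relative tag rule. The genes were chosen for these contrasts, so nothing is read from the shares.

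Calca and Calcb were counted in partly the same cells of the class. Of 3915 HR-positive cells, 1238 had a Calca UMI, 685 a Calcb UMI and 229 both. The 229 cells were 18.5% of those with Calca, close to the 17.5% of all HR-positive cells with Calcb, and 33.4% of those with Calcb, close to the 31.6% of all with Calca. With at least 3 UMIs asked of each gene, 529 cells had Calca, 298 had Calcb and 45 had both. Cells with neither gene were shallower, with a median of 11832 UMIs against 13347 in cells with Calca and 14565 in cells with Calcb. In cluster 3, 56.1% of the 196 cells with Calca also had Calcb, beside 44.3% of all its cells, and in cluster 2, 11.5% of 928 did, beside 8.52% of all its cells.

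**Figure D3:**
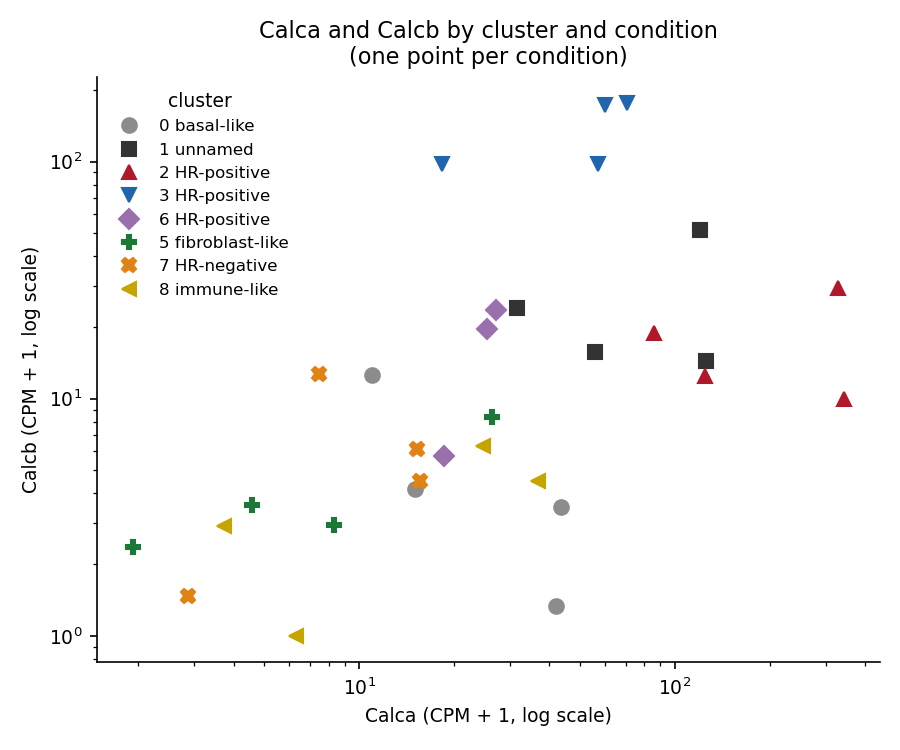
Calca against Calcb, both as CPM plus 1 on log axes, with 1 point per condition for each of 8 clusters that have at least 30 cells in that condition. The 4 points of cluster 2 lie at high Calca and those of cluster 3 at high Calcb.

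Over 33 sums of a cluster in a condition, each of at least 30 cells, the levels of Calca and Calcb correlated at r = 0.58 (Pearson, log2 of CPM plus 1). Calca and Cck were at r = -0.40, and Calcb and Cck at r = -0.39. These points share channels, cultures and the clusters' own genes, so the values describe likeness only. Of 8660 genes compared, those most like Calca were Acot1, an acyl-CoA thioesterase (r = 0.89), the urothelial plaque gene Upk2 (0.88), Phyh, a peroxisomal enzyme (0.87), Smim38 (0.86) and Mdh1, cytosolic malate dehydrogenase (0.86). Acot1 stood at 331 CPM in cluster 2 and 75.3 CPM in cluster 3. Those most like Calcb were Lmcd1 (0.88), Trim16 (0.87), Clu, which encodes the secreted chaperone clusterin (0.87), the retinol dehydrogenase Rdh10 (0.86) and Ccdc68 (0.85). Clu stood at 992 CPM in cluster 2 and 4583 CPM in cluster 3.

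Cell by cell the likeness was weak. Over 3915 HR-positive cells the genes with the highest correlation to Calca were B2m (r = 0.37), Gpx3 (0.32) and Acot1 (0.28), and those to Calcb were Clu (0.36), Clca3a2 (0.36) and Itgb6 (0.33). Lmcd1, first for Calcb over the sums, was at r = 0.02 over cells.

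Cck, the cholecystokinin gene, was a gene of fibroblast-like cells in these organoids. Its level there was 1338 CPM in COL1 (1294 to 1383, 3464 UMIs in 164 cells), 596 CPM in STIFF (572 to 621, 2260 UMIs in 150 cells), 884 CPM in MATR (843 to 927, 1723 UMIs in 105 cells) and 1646 CPM in SOFT (1593 to 1701, 3584 UMIs in 82 cells). SOFT and COL1 were higher and MATR and STIFF lower, and each channel held 1 condition of either kind. HR-positive cells, the most numerous class, had 1.58 to 2.74 CPM, and no cell of the 3915 had more than 2 Cck UMIs.

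A few cells carried most of the Cck. A Cck UMI was found in 61 of 164 fibroblast-like cells of COL1, 63 of 150 of STIFF, 31 of 105 of MATR and 43 of 82 of SOFT. The thinned shares were 39.7% in COL1 (interval 31.7 to 48.1), 36.8% in STIFF (interval 28.9 to 45.2), 28.9% in MATR (interval 20.1 to 39.0) and 49.4% in SOFT (interval 38.1 to 60.7), and all 4 intervals overlapped. Over the 4 conditions the share was 38.2% thinned and 39.5% unthinned at a median depth of 17741 UMIs, against 1.18% and 3.17% of HR-positive cells at 12477 UMIs. The median of detected cells was 26 UMIs in COL1, 25 UMIs in STIFF, 20 UMIs in MATR and 57 UMIs in SOFT, and the highest single cells had 578, 173, 514 and 441 UMIs in that order of conditions. The 10 cells with the most Cck held 66.1% of its UMIs in COL1, 49.03% of those in STIFF, 84.8% of those in MATR and 58.6% of those in SOFT.

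Finer clustering, again made without the gene, set apart cells of the fibroblast-like class that were almost free of Cck. At Leiden resolution 1.0, of the 501 fibroblast-like cells 312 fell into subcluster 5 and 186 into subcluster 8, a split picked for display after its values were seen. Subcluster 5 held 11020 Cck UMIs and subcluster 8 held 7, which is 1455 CPM (1428 to 1483) against 2.49 CPM (0.999 to 5.12). In subcluster 5, 60.6% of cells had a Cck UMI at a median depth of 21398.5 UMIs, and in subcluster 8, 3.76% at 11887.5 UMIs. The level in subcluster 5 was 1938 CPM in COL1, 792 CPM in STIFF, 1336 CPM in MATR and 2169 CPM in SOFT, the same order as over the whole class. Subcluster 8 had 1 or 2 Cck UMIs in each condition.

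Marker genes of the 2 subclusters differed too, as genes used to form them. The fibroblast markers Lum and Pdgfra, the receptor for platelet-derived growth factor A, stood at 898 and 111 CPM in subcluster 5, against 40.1 and 14.2 CPM in subcluster 8. The pericyte markers Rgs5 and Higd1b stood at 0.528 and 0 CPM in subcluster 5, against 309 and 84.1 CPM in subcluster 8. The muscle filament gene Des stood at 16.6 CPM in subcluster 5, against 197 CPM in subcluster 8. The collagen gene Col1a1 was high in both, at 5398 and 4489 CPM. Some listed markers went the other way. The fibroblast markers Dpt and Col3a1 stood at 21.3 and 2710 CPM in subcluster 5, against 38.0 and 3746 CPM in subcluster 8. The pericyte marker Cspg4 stood at 89.4 CPM in subcluster 5, against 71.7 CPM in subcluster 8. The rest of both lists went the way of Lum or Rgs5. Fibroblast markers led in subcluster 8, but it stayed unnamed because basal markers were a further list. By the naming rule, pericyte markers could not count against fibroblast markers in either clustering. Crabp1, a carrier of retinoic acid, stood at 4354 CPM in subcluster 5, against 6.75 CPM in subcluster 8.

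**Figure D4:**
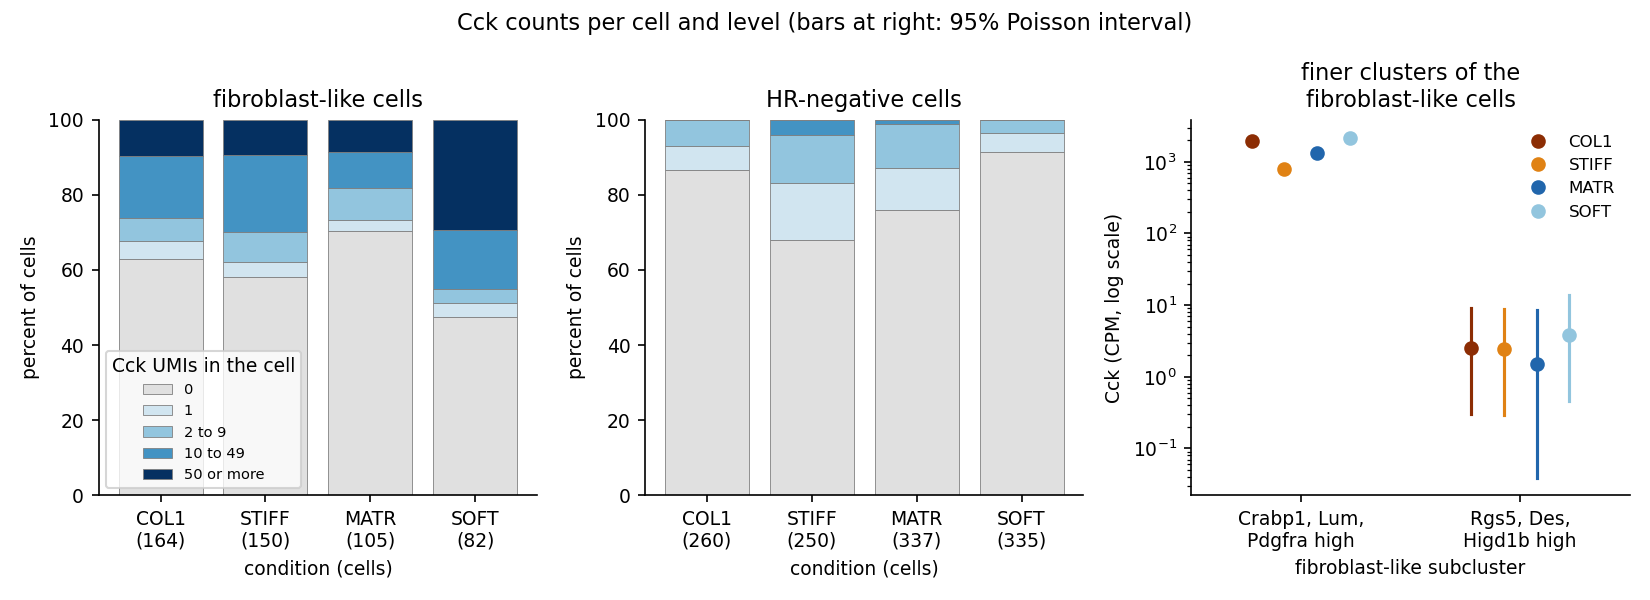
Left and middle, percent of fibroblast-like and HR-negative cells of each condition (cell numbers in brackets) with 0, 1, 2 to 9, 10 to 49 or 50 or more Cck UMIs. Right, Cck level in CPM (log scale, 95% Poisson intervals) in the finer clusters of the fibroblast-like cells, where the cells high in Crabp1, Lum and Pdgfra hold 792 to 2169 CPM and those high in Rgs5, Des and Higd1b hold 1.52 to 3.80 CPM.

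Among the 501 fibroblast-like cells, the genes that went most closely with Cck were Crabp1 (r = 0.59), Mfap4, a protein of elastic microfibrils (0.57), Pdpn, a membrane glycoprotein of fibroblasts (0.57), Cxcl14 (0.54) and Lrrc15 (0.54). At the other end were Serpine2 (r = -0.47), Tmem176a (-0.43), Tmem176b (-0.40), Des (-0.37) and Sparcl1 (-0.37). Of 8 fibroblast markers, 6 had a positive r, with Lum highest at 0.50, and of 8 pericyte markers 1 did. Over the 33 sums the genes most like Cck were Fbln7 (r = 0.93), Creb3l1 (0.92), Itm2a (0.92), Sgce (0.91) and Mfap4 (0.91). The cells share channels and differ in depth.

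The ratio of COL1 over MATR for Cck in fibroblast-like cells was 1.51 (1.43 to 1.60), where 7.47% of genes were at least 1.5-fold higher and 11.2% lower. Its log2 value of 0.60 was 0.54 both at Leiden resolution 1.0 and without the highest doublet scores, which is under 1.5-fold. STIFF over SOFT was 0.362 (0.343 to 0.382), where 6.38% of genes were at least 1.5-fold lower and 11.3% higher. COL1 over STIFF was 2.24 (2.13 to 2.37), where 6.66% of genes were higher and 12.2% lower. MATR over SOFT was 0.537 (0.507 to 0.569), where 8.23% of genes were lower and 12% higher. Single cells decided part of these sizes. Without the 10 cells with the most Cck in each condition, the log2 ratio was 1.68 in place of 0.60 in COL1 over MATR and -2.34 in place of -0.90 in MATR over SOFT. It was 0.58 in place of 1.17 in COL1 over STIFF, which is under 1.5-fold, and -1.24 in place of -1.47 in STIFF over SOFT. Under the relative tag rule the 4 ratios were 2.10, 0.317, 3.16 and 0.477 in the order given above.

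HR-negative cells, the luminal progenitor class, held a low but graded amount of Cck. Their level was 19.4 CPM in COL1 (15.5 to 23.8, 89 UMIs), 37.0 CPM in STIFF (32.9 to 41.6, 289 UMIs), 28.5 CPM in MATR (25.1 to 32.4, 243 UMIs) and 5.93 CPM in SOFT (4.47 to 7.72, 55 UMIs). Here STIFF was highest and SOFT lowest, the reverse of the fibroblast-like cells. STIFF over SOFT was 6.24 (4.67 to 8.49) and MATR over SOFT was 4.81 (3.58 to 6.57), while COL1 over MATR was 0.678 (0.526 to 0.868) and COL1 over STIFF was 0.523 (0.407 to 0.665). Under the relative tag rule STIFF over SOFT was 5.15 (4.36 to 6.12).

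Most HR-negative cells had no Cck UMI. Of 1182 HR-negative cells 957 had no Cck UMI, 110 had 1, 71 had 2 to 4 and 44 had 5 or more, with a maximum of 24. Cells with 10 or more were 10 of 250 in STIFF, 4 of 337 in MATR and 0 in COL1 and SOFT. The Cck ratios of this class were not worked out without the highest cells. Thinned to 5000 UMIs, 5.74% had a UMI in COL1 (3.17 to 9.44), 12% in STIFF (interval 8.24 to 16.7), 10.5% in MATR (interval 7.38 to 14.4) and 4.24% in SOFT (interval 2.34 to 7.02), against 1.18% of HR-positive cells over all conditions. Unthinned, the shares were 13.5%, 32%, 24.0% and 8.66% in that order of conditions, at median depths of 13290.5, 27745, 23646 and 23976 UMIs, against 3.17% of HR-positive cells at 12477 UMIs. The 8 fibroblast markers, none of them at 0, summed to 80.4 CPM in HR-negative cells (69.7 to 94.1 over the conditions) and to 1389 CPM in HR-positive cells (1133 to 1659), with 1 of the 8 at 20 CPM or more in either class. The part of free RNA in these counts was not tested.

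The share of each class among tagged cells differed between conditions, so levels summed over all cells differ from those within a class. HR-positive cells were 34.3% of tagged cells in COL1, 44.1% of those in STIFF, 53.9% of those in MATR and 53.7% of those in SOFT. Fibroblast-like cells were 10.5% of those in COL1, 6.12% of those in STIFF, 4.50% of those in MATR and 4.22% of those in SOFT. Over all tagged cells Calca was at 75.4 CPM in COL1, 125 CPM in STIFF, 50.6 CPM in MATR and 30.4 CPM in SOFT. Calcb was at 30.7 CPM in COL1, 15.2 CPM in STIFF, 11.6 CPM in MATR and 42.6 CPM in SOFT. Cck was at 158 CPM in COL1, 57.7 CPM in STIFF, 48.2 CPM in MATR and 99.7 CPM in SOFT. Cck was 3.29 times as high in COL1 as in MATR (3.12 to 3.47) over all cells, more than the 1.51 within fibroblast-like cells.

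Over all tagged cells, Calcb and Cck were at least 1.5-fold higher in COL1 than in MATR, as were 7.11% of genes while 1.72% were lower, and Calca was at 1.49 (1.51 under the relative tag rule). In STIFF over SOFT, Calca was 4.13 times as high, beside 3.8% of genes at least 1.5-fold higher, and Calcb (0.356) and Cck (0.579) were among the 2.64% that were lower, but the log2 ratio of Cck was -0.54, under 1.5-fold, with equal weight per cell. In COL1 over STIFF, Calcb (2.02) and Cck (2.74) were among the 3.26% higher and Calca (0.601) among the 1.4% lower, but Calca was at 0.775 under the relative tag rule. In MATR over SOFT, Calca (1.66) was among the 2.49% higher and Calcb (0.273) and Cck (0.483) among the 4.23% lower.

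The receptor genes for these peptides were looked for in the same cells. Of 11 genes of the CGRP and calcitonin family, 8 reached 5 CPM in a class and condition. The share of all genes that did so was not worked out. Nothing is therefore read from this count or from those of the other lists below. Ramp1, the partner that makes Calcrl a CGRP receptor, was highest in basal-like cells, at 323 CPM in COL1, 357 CPM in STIFF, 355 CPM in MATR and 377 CPM in SOFT, with little spread between conditions. Calcrl, the receptor itself, was highest among the 5 classes in fibroblast-like cells. Its level there was 14.3 CPM in COL1, 21.9 CPM in STIFF, 16.9 CPM in MATR and 11.9 CPM in SOFT. In basal-like cells Calcrl had 4, 8, 0 and 0 UMIs in that order of conditions. Of the main classes it was thus fibroblast-like cells in which both Calcrl and Ramp1 exceeded 5 CPM in every condition, with Ramp1 there at 60.3 CPM in COL1, 67.8 CPM in STIFF, 68.8 CPM in MATR and 30.8 CPM in SOFT. The 24 endothelial-like cells were too few to be counted as a class.

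Among the 5 classes Ramp2 was highest in fibroblast-like cells at 6.76 CPM, and Ramp3 stayed under 5 CPM in every class and condition. Fibroblast-like cells held 13, 36, 16 and 6 Ramp2 UMIs in COL1, STIFF, MATR and SOFT. All tagged cells held 53, 89, 47 and 10. The Ramp2 level of endothelial-like and unnamed cells was not worked out. Calcr, the calcitonin receptor, had 0 UMIs in all 5 classes. The adrenomedullin gene Adm was highest in fibroblast-like cells, at 137 CPM in COL1, 53.8 CPM in STIFF, 106 CPM in MATR and 59.3 CPM in SOFT. Adm2 (28.3 CPM) and Crcp, a subunit of RNA polymerase III also tied to CGRP signalling (22.5 CPM), were highest in HR-positive cells. Of the 4 genes of the cholecystokinin list only Cck itself reached 5 CPM. Cckar had 0 UMIs in all 5 classes, Cckbr reached 0.131 CPM at most and Gast 0.459 CPM.

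Of 20 listed genes for the processing of peptide precursors, 10 reached 5 CPM in a class and condition. Pam, the amidating enzyme that CGRP and cholecystokinin both need, was highest in HR-positive cells at 126 CPM in COL1, 103 CPM in STIFF, 104 CPM in MATR and 89.6 CPM in SOFT. Cpe, a carboxypeptidase of secretory granules, was highest in fibroblast-like cells, at 76.5 CPM in COL1, 50.9 CPM in STIFF, 62.6 CPM in MATR and 56.0 CPM in SOFT, and the convertase Pcsk5 stood at 63.3 CPM there and 0.377 CPM in HR-positive cells. Furin, a convertase of most cells, was between 50.01 and 74.6 CPM in all 5 classes. The tyrosine sulphating enzymes Tpst1 and Tpst2, the kind of enzyme that completes cholecystokinin, were highest in fibroblast-like cells at 23.7 and 45.8 CPM, with Tpst2 close behind in immune-like cells at 44.1 CPM. The neuroendocrine convertases Pcsk1 and Pcsk2 and the granule genes Chga, Chgb, Scg2, Scg3, Scg5, Vgf and Pcsk1n stayed under 5 CPM in every condition of the 5 classes. These classes leave out the endothelial-like cells, which held all 21 Chga UMIs of tagged cells.

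**Figure D5:**
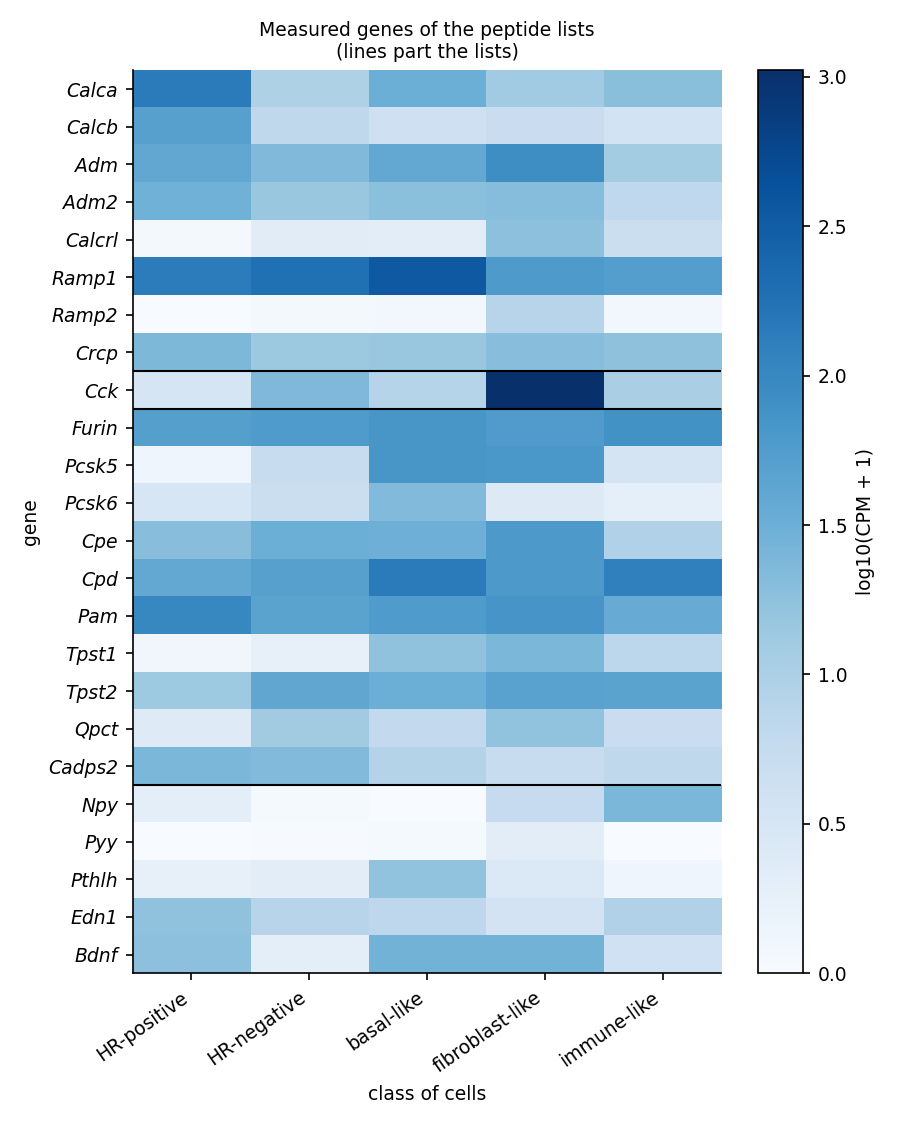
Level of the measured genes of 4 lists in 5 classes of cells, as log10 of CPM plus 1, summed over the 4 conditions. From the top the lists are the CGRP and calcitonin family, cholecystokinin, precursor processing and other peptides. Ramp1 is darkest in basal-like cells (350 CPM), Calcrl in fibroblast-like cells (17.0 CPM) and Cck in fibroblast-like cells (1050 CPM).

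Of 26 further neuropeptide and peptide hormone genes, 5 reached 5 CPM in a class and condition, with no share of all genes to set beside them. Npy was highest in immune-like cells (23.2 CPM), the parathyroid hormone-like gene Pthlh in basal-like cells (15.7 CPM), the endothelin gene Edn1 in HR-positive cells (16.2 CPM), and the neurotrophin gene Bdnf in fibroblast-like (27.1 CPM) and basal-like cells (26.7 CPM). Pyy reached 5.64 CPM (11 UMIs) in fibroblast-like cells of MATR. Vip, Sst, Pdyn, Grp, Adcyap1 and Kiss1 had 0 UMIs in all 5 classes.

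The listed genes were set against all genes in HR-positive cells. In STIFF over SOFT, where 5.2% of all genes were at least 1.5-fold higher and 4.31% lower, of the other 4 measured genes of the CGRP family 0 were at least 1.5-fold higher and 1 was lower, Ramp1 at 109 CPM in STIFF and 169 CPM in SOFT. Their median log2 ratio was 0.08, beside 0.02 over all 9642 genes measured. Of 6 processing genes 2 were higher, Cpe (29.4 CPM in STIFF, 10.4 in SOFT) and Cadps2, with a median of 0.10. Of 8 target genes of Gs-coupled receptors, the kind that CGRP acts on, Nr4a1 and Fos were higher and Pde4b was lower, with a median of 0.36. In COL1 over MATR, where 5.77% of all genes were higher and 1.62% lower, the same lists had 0 of 4, 0 of 6 and 2 of 8 higher in HR-positive cells, where Cpe was lower. In fibroblast-like cells of STIFF over SOFT, 3 of 6 genes of the CGRP family were at least 1.5-fold higher (Calcrl, Ramp1 and Ramp2) and Adm2 was lower, where 11.3% of all genes were higher and 6.38% were lower.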

How the data were processed

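The authors deposited gene and hashtag counts (UMIs) per barcode for 2 pooled channels. Cell Ranger 5.0.0, Seurat 4.2.0 and mm10 are named in the submitters' processing notes. How strand was treated in counting is not given in the sources used here. Barcodes entered the work with 1000 UMIs and 500 genes or more and a mitochondrial share of 15% or less. Tags were called with HTODemux (Seurat 5.3.0, R 4.3.3) at a quantile of 0.99. Cells with both tags were removed. Scrublet made 0 calls in either channel and so did not work here, and doublets within 1 tag may remain, and leaving out the highest scores was an alternative. Clustering used scanpy 1.11.5 (Python 3.11.15) on 2000 variable genes without Calca, Calcb and Cck, 30 components, 15 neighbours and Leiden resolution 0.5. A cluster was named from at least 3 markers at 20 CPM and 2-fold, unless a second list reached 0.5 of the first. The fibroblast and pericyte lists did not count as second lists to each other. Clusters of low median depth also stayed unnamed. So did those whose median doublet score passed 0.1, a limit set after seeing the data. Counts were summed by class and condition and divided by all UMIs. Intervals are exact at 95% (Poisson, conditional binomial for ratios, Clopper-Pearson for shares). A gene counted as measured at 5 CPM and as differing at 1.5-fold. A count of 0 allows up to 3. Alternative scaling used trimmed means (edgeR 4.0.16). Genes named as most alike were the first 5 by Pearson correlation over the sums, among genes of at least 200 UMIs and 20 CPM in a sum, without mitochondrial, ribosomal and unnamed genes. Of the lists, measured genes with the highest levels in any class were named, and genes named at or near 0 were picked after their values were seen. Only the ratio intervals and the ranking of genes by likeness were tried on simulated data. The simulated counts were independent and had no cells, so they cannot show how the intervals hold where few cells carry most UMIs. Tag calls, clustering, naming and thinning were not simulated. The genes, lists and rules were chosen with earlier results of these data known. One marker gene is not reported here.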

Additional observations from a re-analysis of the deposited data

Results flagged for a closer look

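Some ratios between conditions pointed in opposite directions in different classes of cells. None of these differences was tested, since each condition was 1 culture. The log2 ratio of STIFF over SOFT for Cck was 2.64 in HR-negative and -1.47 in fibroblast-like cells. For MATR over SOFT it was 2.27 in HR-negative and -0.90 in fibroblast-like cells. Cck in COL1 over MATR was 3.16 in immune-like and -0.56 in HR-negative cells, and in COL1 over STIFF it was 2.21 in immune-like and -1.80 in basal-like cells. In COL1, 75 of the 83 Cck UMIs of immune-like cells were in 1 cell, and in STIFF 42 of the 64 of basal-like cells were in 1 cell.

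Calca in COL1 over MATR was 2.96 in HR-negative and -1.54 in basal-like cells. In MATR over SOFT it was 2.03 in basal-like and -1.78 in HR-negative cells. Of the 67 Calca UMIs of HR-negative cells in COL1, 54 were in 1 cell.

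Barcodes with no tag under the hashtag thresholds, which entered no comparison made with those thresholds, held 2443 UMIs of Calca, 1073 of Calcb and 4354 of Cck.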

How the results depend on the processing

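None of the ratios rerun, over all tagged cells, HR-positive and fibroblast-like cells and clusters 2 and 3, changed direction under any alternative run. Ratios of basal-like, HR-negative and immune-like cells were not in this set. They were not worked out without their highest cells either, so nothing is said of how their directions hold. Scaling by trimmed means left all 24 ratios within their counting error, and a stricter cell filter and clustering with the 3 genes kept each left 12 of 12. Values that moved are log2 ratios unless a unit is given. Under the relative tag rule, over all tagged cells, Calca was at 1.83 (STIFF over SOFT), -0.37 (COL1 over STIFF) and 0.87 (MATR over SOFT), Calcb at -1.70 (STIFF over SOFT) and 1.29 (COL1 over STIFF), and Cck at 2.13 (COL1 over MATR), -0.63 (STIFF over SOFT) and -1.23 (MATR over SOFT). Under the same rule, HR-positive Calca was at -0.50 (COL1 over STIFF) and 0.72 (MATR over SOFT), HR-positive Calcb at -1.36 (STIFF over SOFT), and fibroblast-like Cck at 1.07 (COL1 over MATR), -1.66 (STIFF over SOFT), 1.66 (COL1 over STIFF) and -1.07 (MATR over SOFT). With equal weight per cell, Calca was at 0.44 (COL1 over MATR), 2.18 (STIFF over SOFT) and -1.002 (COL1 over STIFF), and Cck at -0.54 (STIFF over SOFT) and 1.18 (COL1 over STIFF). Without the highest doublet scores, Calcb was at -2.04 (MATR over SOFT) and Cck at -0.91 (STIFF over SOFT) and 1.58 (COL1 over STIFF), and fibroblast-like Cck at -1.67 (STIFF over SOFT) and -1.06 (MATR over SOFT). At Leiden resolution 1.0, fibroblast-like Cck was at 1.29 (COL1 over STIFF) and -0.70 (MATR over SOFT). Without the unnamed clusters, an alternative chosen after seeing the data, Calca was at 0.47 (COL1 over MATR) and -0.87 (COL1 over STIFF), Calcb at 0.83 (COL1 over STIFF) and -2.04 (MATR over SOFT), and Cck at -0.61 (STIFF over SOFT), 1.35 (COL1 over STIFF) and -0.93 (MATR over SOFT). Without the 10 cells with the most Cck in each condition, also chosen after seeing the data, fibroblast-like Cck was at 1.68 (COL1 over MATR), -1.24 (STIFF over SOFT), 0.58 (COL1 over STIFF) and -2.34 (MATR over SOFT). Without the cell highest in the gene in each condition, also added after seeing the data, Calca in cluster 3 was at -1.18 (STIFF over SOFT) and 0.76 (COL1 over STIFF), and the other 14 ratios of Calca and Calcb in clusters 2 and 3 stayed within their counting error. The cause of these shifts was not tested. With all kept barcodes, HR-positive cells held 62.4% of Calca and fibroblast-like cells 81.8% of Cck. The share of cells with a UMI was 31.6% (Calca) and 17.5% (Calcb) at the cells' own depth, and 15.8% (Calca), 8.19% (Calcb) and 33.3% (Cck) at 3000 UMIs. Over single cells, r was 0.28 for Acot1 with Calca, 0.015 for Lmcd1 with Calcb and 0.11 for Fbln7 with Cck. No paired analysis was possible because each condition was 1 culture and the result comes from no test.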

Other observations

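Barcodes without a tag under the hashtag thresholds are given by channel. In the COL1 and STIFF channel, untagged HR-positive cells had 181 CPM of Calca and 36.3 CPM of Calcb, and untagged fibroblast-like cells had 355 CPM of Cck. In the MATR and SOFT channel, untagged HR-positive cells had 54.2 CPM of Calca and 71.4 CPM of Calcb, and untagged fibroblast-like cells had 692 CPM of Cck. Untagged HR-negative cells had 49.7 CPM of Cck in the COL1 and STIFF channel and 18.0 CPM in the MATR and SOFT channel.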
